A study of Mus musculus with 3 samples.

Results

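Collagen genes were followed across the cell classes of mouse liver in 3 Drop-seq libraries. Members were all genes whose symbol consists of Col, a chain type number, a and a chain number, and 41 of the 19091 genes in the deposited tables met this rule. They were split into 10 fibrillar, 8 basement membrane and 23 other collagens. The rule reads the symbol and no measured value. A UMI (unique molecular identifier, a tag that marks 1 captured transcript) of all 41 members was seen in the control library, of 30 at 1 day and of 27 at 7 days post injury (p.i.). These libraries held 10032574, 8563287 and 4580021 UMIs over all barcodes, in the same order. The share of all genes seen in each library was not computed, so these counts are not read as a result about collagens.

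The study used C57BL/6 mice and irreversible electroporation (IRE), which kills hepatocytes by electric pulses, to ask how liver cells respond to a local wound. According to the labels IRE was given as 8 pulses of 50 ms at 75 V with 1 s between pulses, whereas the methods of the study give a lower voltage for liver, and liver was taken 1 or 7 days later. Control mice had sham surgery, and their liver was taken after 1 day. A punch of 4 mm from the electroporated area, or from the same uninjured area in controls, was digested with dispase and collagenase, and 3 livers were pooled for each of the 3 libraries. Each condition was thus 1 library, so no test across samples could be made, and the 95% intervals below cover counting error only. The age of the mice is not given in the labels. No sham library at 7 days was analysed here, so that time after surgery and injury cannot be told apart at 7 days p.i.

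Collagens are matrix proteins whose chains wind around each other into a rope-like helix. Fibrillar types assemble into the cable-like fibers that give tissue its strength, type IV forms the sheet-like network of basement membranes, and further types bridge, coat or anchor these structures or stay in the cell membrane. In liver, stellate cells and portal fibroblasts are the known makers of fibrillar collagen, mesothelial cells cover the organ surface, and the sinusoidal endothelium is known for lacking a continuous basement membrane.

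Barcodes with at least 200 detected genes were taken as cells, which left 10386 control cells, 9253 cells at 1 day and 5624 cells at 7 days p.i. The labels estimate 1000 cells behind the amplified cDNA, far fewer than these barcodes. The study itself reports a total of cells far above that estimate and of the order of these barcodes. Whether each barcode held 1 whole cell was not tested. These cells held 8013800, 6107866 and 3058967 UMIs, with a median of 595, 509 and 456.5 UMIs per cell. The libraries differed in more than the collagens. Hepatocyte transcripts took 0.228%, 3.27% and 0.0504% of all UMIs in control, 1 day and 7 day cells, and mitochondrial transcripts took 20.5%, 21.7% and 4.10%. In CPM (counts of UMIs scaled to 1000000 in the library or class), Postn, a matrix protein of activated fibroblasts, stood at 55.0, 0.655 and 0, and Gpnmb, a membrane glycoprotein of activated macrophages, at 439, 3.11 and 125. S100a8, a neutrophil calcium-binding protein, stood at 1829.7, 287 and 19867, and Stab2, a scavenger receptor of the sinusoidal endothelium, at 143, 373 and 17.7. Every direction below follows the labels of the libraries, and whether contents and labels belong together was not tested. Cell barcodes were shared by 44 to 149 cells between pairs of libraries, at most 2.65% of the smaller library.

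Cells were assigned to a class when at least 2 of its marker genes were detected and more of them than of any other class, with no collagen among the markers. The endothelial gate held 1744 control cells, 5190 cells at 1 day and 98 cells at 7 days p.i., which were 16.8%, 56.1% and 1.74% of cells. The leukocyte gate held 5637, 1759 and 4189 cells, or 54.3%, 19.0% and 74.5%. The fibroblast gate held 278, 7 and 4 cells, or 2.68%, 0.0757% and 0.0711%. The mesothelial gate held 56, 7 and 0 cells, and 0 of 5624 cells allows a share of up to 0.0656%. Of 5 further markers of each class that the gates did not use, all 5 were highest in their own class for endothelial-gated and leukocyte-gated cells of all 3 libraries. For fibroblast-gated cells this held for 4 of 5 in control and at 1 day, with Reln as the exception, and for 1 of 5 at 7 days p.i., where Bgn, Fstl1, Clec3b and Reln had 0 UMIs. The 4 fibroblast-gated cells of the last library are therefore named by their gate only. For mesothelial-gated cells 3 of 5 were highest in their own class in both libraries that held them, the exceptions being Krt8 and Krt18. Barcodes under 200 genes served as the measure of background in each library. They numbered 5318 in control, 8908 at 1 day and 6842 at 7 days p.i., and held 2018774, 2455421 and 1521054 UMIs. Whether shallow cells were among them was not tested, so that subtraction of their level may also remove signal of cells. The summed collagen level of these barcodes was 772 CPM in control, 439.8 at 1 day and 57.2 at 7 days p.i.

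The promoters of 4 collagen genes are shown because the results below turn on these genes. Col4a1 and Col4a2, which encode the main pair of type IV chains, start 21 bases apart on opposite strands, and their windows share 78 bases. Col1a2 encodes a type I chain and Col13a1 a collagen that stays in the cell membrane. The sequences are those of RefSeq on GRCm38.p6, 250 bases before to 50 after the annotated start, and 33 of the 41 members had such a window. They lie at chr8:11312777-11313076 on the minus strand for Col4a1, chr8:11312555-11312854 on the plus strand for Col4a2, chr6:4505368-4505667 on the plus strand for Col1a2 and chr10:61979059-61979358 on the minus strand for Col13a1. Capitals mark the motifs CCAAT (the box bound by the factor NF-Y), TATAA (the TATA box) and GGGCGG (the GC box), also on the opposite strand, where the first reads ATTGG in this direction while the last reads CCGCCC.
Col4a1: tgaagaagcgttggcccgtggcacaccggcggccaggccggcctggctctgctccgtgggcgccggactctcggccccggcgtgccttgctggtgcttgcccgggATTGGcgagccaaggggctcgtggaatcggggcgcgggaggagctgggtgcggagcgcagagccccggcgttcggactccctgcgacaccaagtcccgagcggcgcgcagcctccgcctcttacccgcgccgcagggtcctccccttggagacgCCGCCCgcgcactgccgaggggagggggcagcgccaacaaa
Col4a2: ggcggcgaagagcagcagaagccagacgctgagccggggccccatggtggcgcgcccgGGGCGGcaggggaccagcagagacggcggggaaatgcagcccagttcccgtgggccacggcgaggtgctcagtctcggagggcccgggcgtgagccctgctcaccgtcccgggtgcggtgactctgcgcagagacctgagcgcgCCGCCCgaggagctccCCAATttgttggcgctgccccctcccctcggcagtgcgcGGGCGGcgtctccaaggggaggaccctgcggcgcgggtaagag
Col1a2: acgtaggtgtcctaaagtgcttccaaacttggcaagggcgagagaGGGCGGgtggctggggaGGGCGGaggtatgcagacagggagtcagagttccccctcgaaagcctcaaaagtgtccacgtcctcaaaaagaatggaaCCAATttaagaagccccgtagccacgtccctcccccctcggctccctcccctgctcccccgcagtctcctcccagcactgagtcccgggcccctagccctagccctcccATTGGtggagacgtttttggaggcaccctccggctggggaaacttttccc
Col13a1: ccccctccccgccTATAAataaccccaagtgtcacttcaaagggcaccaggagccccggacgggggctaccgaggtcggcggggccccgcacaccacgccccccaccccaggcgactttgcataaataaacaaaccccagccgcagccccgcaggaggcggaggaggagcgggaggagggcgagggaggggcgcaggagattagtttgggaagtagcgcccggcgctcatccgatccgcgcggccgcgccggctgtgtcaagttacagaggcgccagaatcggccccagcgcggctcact
The Col4a1 window held 1 CCAAT and 1 GGGCGG, that of Col4a2 1 CCAAT and 3 GGGCGG, that of Col1a2 2 of each, and that of Col13a1 1 TATAA alone. Of the 35 collagen windows, 34.3% held CCAAT, 14.3% TATAA and 65.7% GGGCGG, and of all 32851 windows of this length 37.4%, 24.9% and 35.7% did. These matches are a description of the letters and do not show a binding site.

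In control liver, collagen transcripts were concentrated in the fibroblast-gated cells, which were 2.68% of cells and held 62.5% of all collagen UMIs. The summed level of the 41 genes was 37189 CPM there, 12164 in mesothelial-gated, 1481 in endothelial-gated and 329.9 in leukocyte-gated cells. The distance between classes was set by the fibrillar collagens, at 32945, 9738, 451 and 237 CPM in the same order. Basement membrane collagens were spread more evenly, at 1144 CPM in fibroblast-gated, 749 in mesothelial-gated, 849 in endothelial-gated and 48.8 in leukocyte-gated cells. Other collagens followed the fibrillar ones, at 3101, 1677, 182 and 44.3. Against endothelial-gated cells, the fibroblast-gated level was 73.1-fold higher for fibrillar (67.0 to 79.8), 1.35-fold for basement membrane (1.19 to 1.52) and 17.1-fold for other collagens (14.7 to 19.9).

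**Figure D1:**
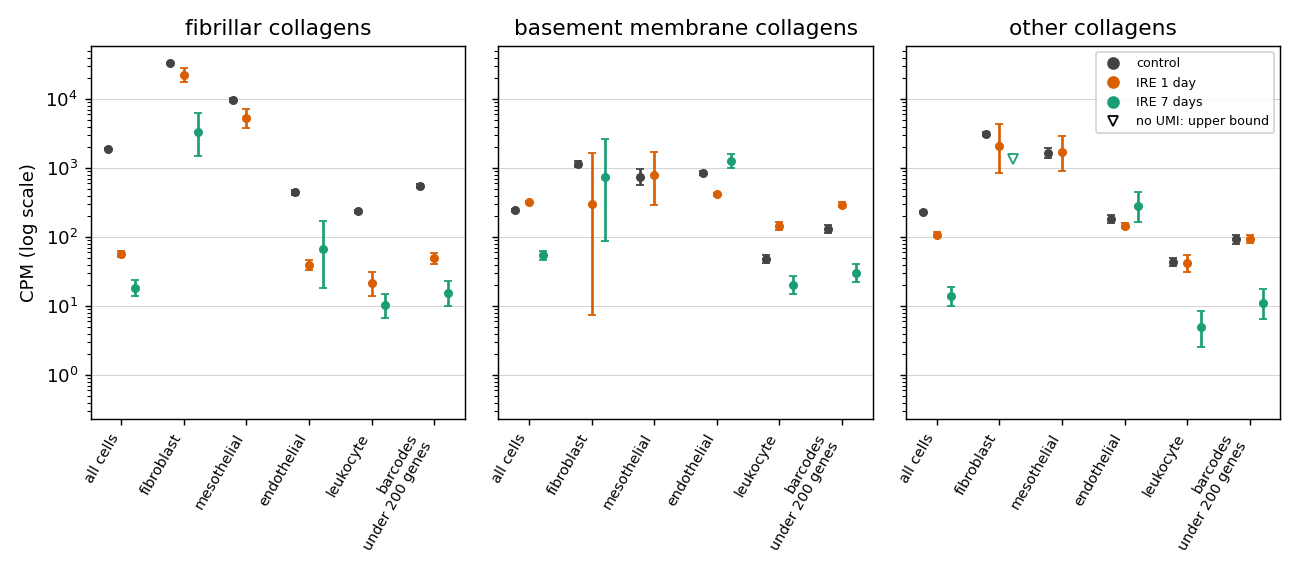
Summed level of fibrillar, basement membrane and other collagens (CPM, log axis) in all cells, each gated class and the barcodes under 200 genes of the 3 libraries, with exact Poisson 95% intervals for counting error and an open triangle for the upper limit where no UMI was seen. In control the fibrillar level runs from 32945 in fibroblast-gated to 237 in leukocyte-gated cells, while the basement membrane level of endothelial-gated cells, 849, lies near that of the fibroblast-gated cells, 1144.

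Counted by gene, 18 of the 21 members with enough UMIs were at least 2-fold higher in fibroblast-gated than in endothelial-gated control cells, where 12.5% of all genes were. One member, Col13a1, was at least 2-fold lower, where 18.8% of all genes were. The median log2 ratio of these members was 5.48, and that of all genes was -0.06. All 20 members compared with leukocyte-gated cells were at least 2-fold higher in fibroblast-gated cells, against 18.4% of all genes. Ranked over the gates of the control library, 15 of 21 members had their highest level in fibroblast-gated cells (16.2% of all genes), 3 in mesothelial-gated cells (22.9%) and 3 in endothelial-gated cells (15.9%). The intervals of the first and second class stood apart for 12 of these 21, namely Col1a1, Col1a2, Col3a1, Col5a1, Col5a2, Col5a3, Col6a3, Col8a1, Col12a1, Col14a1 and Col15a1 in fibroblast-gated cells and Col13a1 in endothelial-gated cells. For the other 9 the order of the first and second class was within counting error. How many of all genes had intervals that stood apart was not computed.

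Among the fibrillar genes, Col1a1 and Col1a2, whose products form type I collagen, reached 3981 and 14462 CPM in control fibroblast-gated cells. In mesothelial-gated cells they stood at 868 and 4233, in endothelial-gated cells at 58.3 and 165, and in leukocyte-gated cells at 34.8 and 96.0. Col3a1, which encodes the type III chain found beside type I in pliable tissue, was at 12421, 3793, 165 and 81.2 in the same order. All 3 genes had the same order of classes, and the intervals of neighbouring classes did not overlap. The type V chains, which sit inside type I fibers and set their width, were also highest in fibroblast-gated cells, at lower counts. Col5a1 was at 676 CPM in fibroblast-gated, 131 in mesothelial-gated, 7.60 in endothelial-gated and 5.15 in leukocyte-gated cells, and Col5a2 was at 1122, 642, 40.5 and 10.3. Col5a3 was at 124 in fibroblast-gated and 2.06 in leukocyte-gated cells and had 0 UMIs in endothelial-gated cells, so that its level was at least 49.0-fold higher in fibroblast-gated than in endothelial-gated cells, with the 0 set to a floor of 3 counts in the class.

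The remaining fibrillar genes were sparse. Col11a1, a chain that starts fibers in cartilage, had 24 of its 30 control UMIs in fibroblast-gated cells, a level of 74.4 CPM, and 3 in endothelial-gated cells. Col24a1, a chain known from bone, had 13 of 29 UMIs in fibroblast-gated cells, a level of 40.3. Col27a1, another chain known from cartilage, was less unequal, with 43.4 CPM in fibroblast-gated, 23.8 in mesothelial-gated, 9.29 in endothelial-gated and 4.33 in leukocyte-gated cells. Col11a2 had 16 control UMIs, of which 12 lay in leukocyte-gated cells (2.47 CPM), 2 in endothelial-gated and 0 in fibroblast-gated cells. Over the cells of all libraries it was the 1 member of 23 with its highest level in leukocyte-gated cells (17.5% of all genes), at 2.58 CPM against 1.04 in endothelial-gated cells, with intervals that overlapped.

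**Figure D2:**
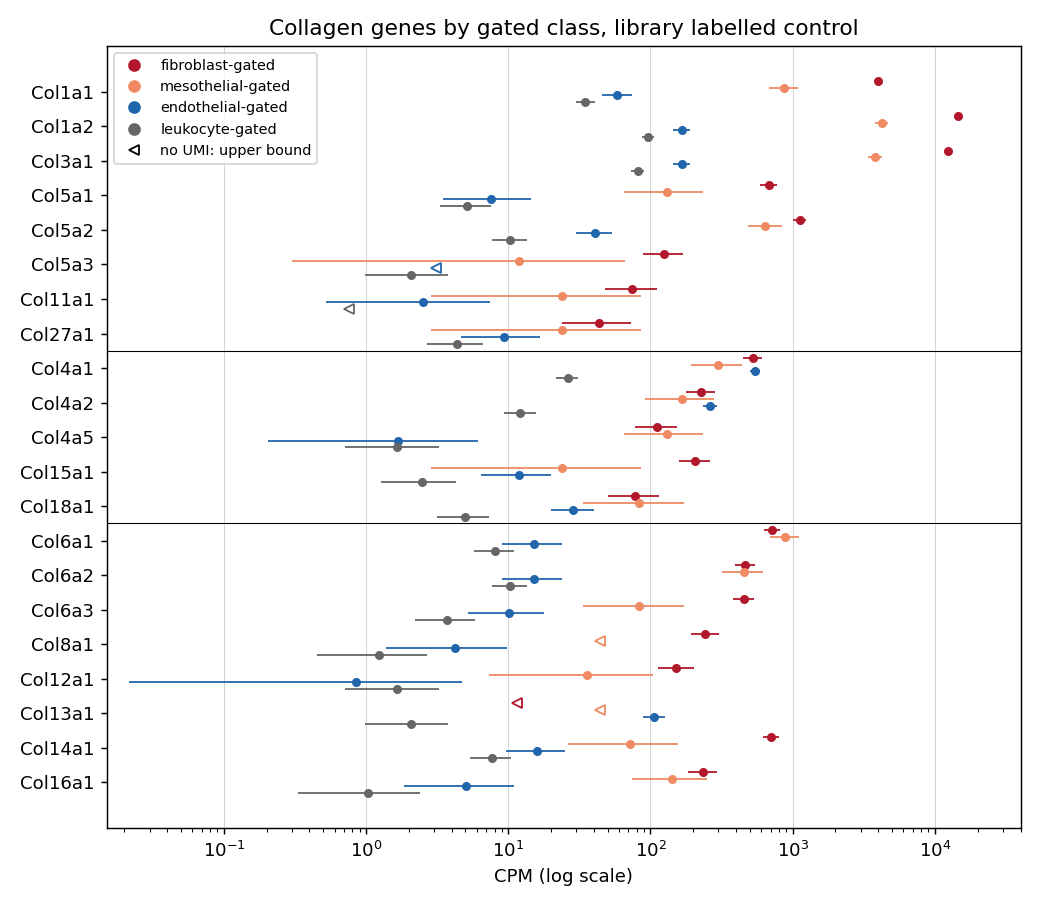
Level (CPM, log axis) of the 21 collagen genes with at least 20 UMIs in gated cells, in 4 gated classes of the control library, with exact Poisson 95% intervals for counting error and open triangles for the upper limit where no UMI was seen. Col1a2 runs from 14462 in fibroblast-gated to 96.0 in leukocyte-gated cells, Col4a1 lies at 524 in fibroblast-gated and 544 in endothelial-gated cells, and Col13a1 appears in endothelial-gated (106) and faintly in leukocyte-gated cells (2.06).

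The basement membrane genes behaved differently from the fibrillar ones. Col4a1 stood at 544 CPM in endothelial-gated (503 to 587), 524 in fibroblast-gated (448 to 609), 297 in mesothelial-gated and 26.2 in leukocyte-gated cells. Col4a2 stood at 262, 226, 166 and 12.2. The fibroblast-gated to endothelial-gated ratio was 0.964 for Col4a1 (0.809 to 1.14) and 0.865 for Col4a2 (0.661 to 1.12), so that a difference between these 2 classes was not detectable at this depth. Because endothelial-gated cells were more numerous, they held 59.2% of the Col4a1 and 58.8% of the Col4a2 UMIs of the control library. Col4a5, which joins other type IV networks, was at 131 in mesothelial-gated and 112 in fibroblast-gated cells and at 1.69 in endothelial-gated cells. Unlike the main pair it was thus 66.1-fold higher in fibroblast-gated than in endothelial-gated cells (17.0 to 567), on 36 against 2 UMIs. Col18a1, the precursor of endostatin in vessel and epithelial basement membranes, was at 83.2 in mesothelial-gated, 77.5 in fibroblast-gated, 28.7 in endothelial-gated and 4.95 in leukocyte-gated cells. Col15a1, a related chain that lies between basement membrane and fibers, was at 205 in fibroblast-gated cells, 23.8 in mesothelial-gated and 11.8 in endothelial-gated cells.

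Type VI collagen, whose 3 main chains form beaded filaments around cells, was the group in which mesothelial-gated cells came closest to fibroblast-gated cells. Col6a1 was at 879.9 CPM in mesothelial-gated and 719 in fibroblast-gated cells, a ratio of 1.22 (0.928 to 1.60), and Col6a2 was at 452 and 465, a ratio of 0.971 (0.662 to 1.39). Col6a3 was lower in mesothelial-gated cells, at 83.2 against 453, a ratio of 0.184 (0.0726 to 0.389). In endothelial-gated cells the chains stood at 15.2, 15.2 and 10.1. Of the fiber-associated chains, Col14a1 was at 707 in fibroblast-gated and 71.3 in mesothelial-gated cells, Col12a1 at 152 and 35.7, and Col16a1 at 233 and 143. Col14a1 and Col12a1 decorate the surface of type I fibers. Col8a1, a short-chain network collagen of vessel walls, was at 242 in fibroblast-gated cells and had 0 UMIs in mesothelial-gated cells, at least 6.78-fold lower. Col7a1, which forms anchoring fibrils beneath epithelia, had 10 of 16 control UMIs in fibroblast-gated cells.

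Col13a1 was the one member with an endothelial pattern in control. Its level was 106 CPM in endothelial-gated cells (88.6 to 127) and 2.06 in leukocyte-gated cells, with 0 UMIs in fibroblast-gated and mesothelial-gated cells. The fibroblast-gated level was at least 11.4-fold lower than the endothelial-gated one. Endothelial-gated cells held 85.1% of its control UMIs and 85.5% of its UMIs at 1 day p.i. Col23a1, a further collagen of the cell membrane, had 14 of 21 control UMIs in leukocyte-gated cells, and Col9a3, a chain of cartilage type IX, had 5 of 13 there. Both levels were under 3 CPM in that class. Leukocyte-gated cells held 60.6% of all control UMIs, so that these counts do not show a leukocyte pattern. Over all libraries Col23a1 was highest in fibroblast-gated cells, at 9.13 CPM against 2.34 in leukocyte-gated cells, with intervals that overlapped.

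The 15 members with under 20 UMIs over all cells held between 1 and 19 each. They were Col8a2 (19), Col4a6 (14), Col6a5 (11), Col4a3 (7), Col17a1 (7), Col4a4 (6), Col9a2 (6), Col20a1 (6), Col6a6 (5), Col19a1 (2), Col25a1 (2), Col28a1 (2), Col6a4 (1), Col22a1 (1) and Col26a1 (1). Of these, Col8a2 had 11 UMIs in control fibroblast-gated cells and Col4a6 had 4 in control mesothelial-gated cells, and Col4a3 was seen with 6 of its 7 UMIs at 1 day p.i. No ratio is read from these counts.

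Most control cells of the fibroblast and mesothelial gates carried fibrillar collagen. At least 1 fibrillar UMI was seen in 97.5% of fibroblast-gated and 98.2% of mesothelial-gated cells, against 13.4% of endothelial-gated and 13.3% of leukocyte-gated cells. After each cell was thinned to 300 UMIs these shares were 95.2%, 83.9%, 6.67% and 5.24%. Basement membrane collagen was seen in 52.5% of fibroblast-gated, 55.4% of mesothelial-gated, 34.2% of endothelial-gated and 3.62% of leukocyte-gated cells, and after thinning in 23.2%, 17.9%, 20.1% and 1.35%. In the median fibroblast-gated cell 3.08% of all UMIs were collagen (quartiles 1.53% and 5.11%, highest cell 9.94%), and in the median mesothelial-gated cell 0.991% (quartiles 0.495% and 1.81%). Leukocyte-gated cells with the most collagen, 10% of them, held 70.9% of the collagen UMIs of their class. The same part of endothelial-gated, fibroblast-gated and mesothelial-gated cells held 53.4%, 37.8% and 30.6%. As only 18.3% of leukocyte-gated cells had any collagen UMI, their value does not show a collagen-rich subset.

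The collagen of leukocyte-gated cells did not exceed that of barcodes under 200 genes. In control the summed level was 329.9 CPM in leukocyte-gated cells and 772 in these barcodes, a ratio of 0.427 (0.398 to 0.459), and the ratio was 0.477 at 1 day and 0.625 at 7 days p.i. By gene, 11 of 17 members were at least 2-fold lower in control leukocyte-gated cells than in these barcodes (3.92% of all genes), and 0 were at least 2-fold higher (27.5% of all genes). The median log2 ratio was -1.10 for the members and 0.66 for all genes. By leukocyte markers the level was 342 in cells with neutrophil markers (286 to 407), 308 in those with macrophage or monocyte markers and 249 in those with lymphocyte markers. The ratio of macrophage or monocyte to lymphocyte cells was 1.24 (1.00 to 1.54) for all collagens and 2.46 (1.16 to 6.24) for other collagens, the latter on 122 and 7 UMIs. Fibrillar collagen of control endothelial-gated cells was likewise below these barcodes, with a ratio of 0.824 (0.742 to 0.914). The part of transcripts from outside the cells in both levels was not tested. By contrast, endothelial-gated cells were above these barcodes for basement membrane collagens by 6.46-fold (5.64 to 7.43), for Col4a1 by 6.57-fold, for Col13a1 by 6.32-fold and for Col18a1 by 7.24-fold (3.29 to 18.1).

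The UMIs of Col4a1 and Col4a2 stood in a similar proportion in all control classes. Their UMI ratio was 2.08 in endothelial-gated (1.81 to 2.39), 2.32 in fibroblast-gated (1.75 to 3.09), 1.79 in mesothelial-gated (0.893 to 3.72) and 2.15 in leukocyte-gated cells (1.57 to 2.98). At 1 day p.i. it was 1.97 in endothelial-gated (1.74 to 2.23) and 2.49 in leukocyte-gated cells, and at 7 days 1.16 in endothelial-gated cells (0.698 to 1.94), on 36 and 31 UMIs. Such a ratio of tags compares classes and is not per transcript length, so that it does not rank the genes. The type I pair was at 0.275 in fibroblast-gated and 0.205 in mesothelial-gated cells (Col1a1 over Col1a2), with intervals of 0.259 to 0.293 and 0.157 to 0.264. The type V pair was less alike, with Col5a1 over Col5a2 at 0.602 in fibroblast-gated (0.507 to 0.714) and 0.204 in mesothelial-gated cells (0.0960 to 0.394), intervals that did not overlap.

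**Figure D3:**
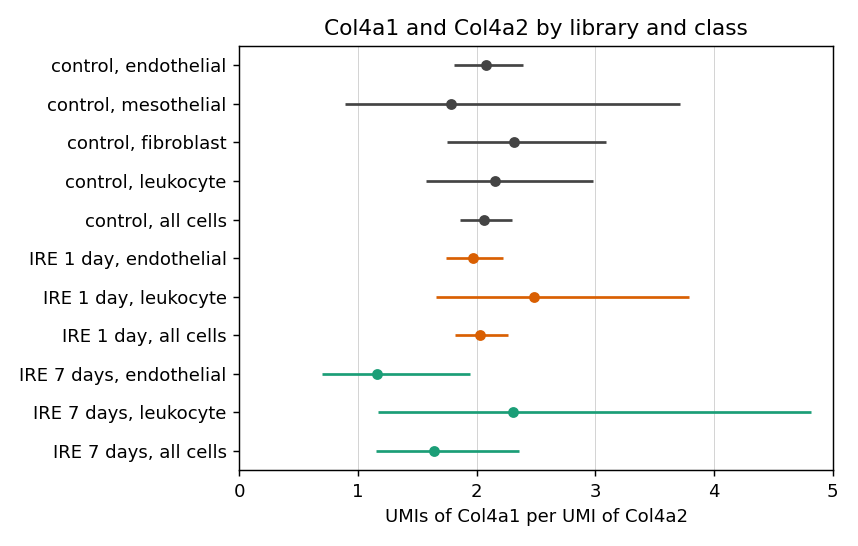
Ratio of Col4a1 to Col4a2 UMIs in each class and library with enough UMIs, with 95% conditional binomial intervals for counting error. All values but the 7 day endothelial-gated one, 1.16, lie between 1.64 and 2.49, and all intervals of gated classes overlap.

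Mesothelial-gated control cells were lower than fibroblast-gated cells for fibrillar collagens, with a ratio of 0.296 (0.275 to 0.317). The ratio was 0.655 for basement membrane (0.493 to 0.857) and 0.541 for other collagens (0.450 to 0.646). By gene, 11 of 19 members were at least 2-fold lower in mesothelial-gated cells (12.2% of all genes) and 0 at least 2-fold higher (8.6% of all genes), with a median log2 ratio of -1.71 against 0.03 for all genes. Col14a1 (0.101), Col15a1 (0.116) and Col5a1 (0.194) were among the lowest ratios, and Col4a5 (1.17) and Col18a1 (1.07) were above 1 within wide intervals.

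Fibroblast-gated cells were not uniform in their collagens. In control, 26 cells with Postn or Aspn, matrix genes of activated fibroblasts, were compared with 64 cells with Dpt or Mfap5, genes of adventitial fibroblasts. These 2 sets were chosen after the counts had been seen, and 178 cells carried neither or several sets. Summed collagen was close, at 34610.5 against 32112 CPM (ratio 1.08, 0.997 to 1.17), and so was fibrillar collagen (1.04, 0.955 to 1.13). Single genes diverged in both directions. Col3a1 was lower in the cells with Postn or Aspn (0.722, 0.619 to 0.840), as was Col14a1 (0.401, 0.180 to 0.811), while Col1a2 was higher (1.24, 1.10 to 1.41), as were Col4a1 (1.87, 1.15 to 3.05) and Col6a3 (2.80, 1.45 to 5.60). Basement membrane collagens together were 1.85-fold higher (1.31 to 2.63). The 10 cells with stellate cell markers had a summed level of 22046 CPM, on 181 UMIs.

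**Figure D4:**
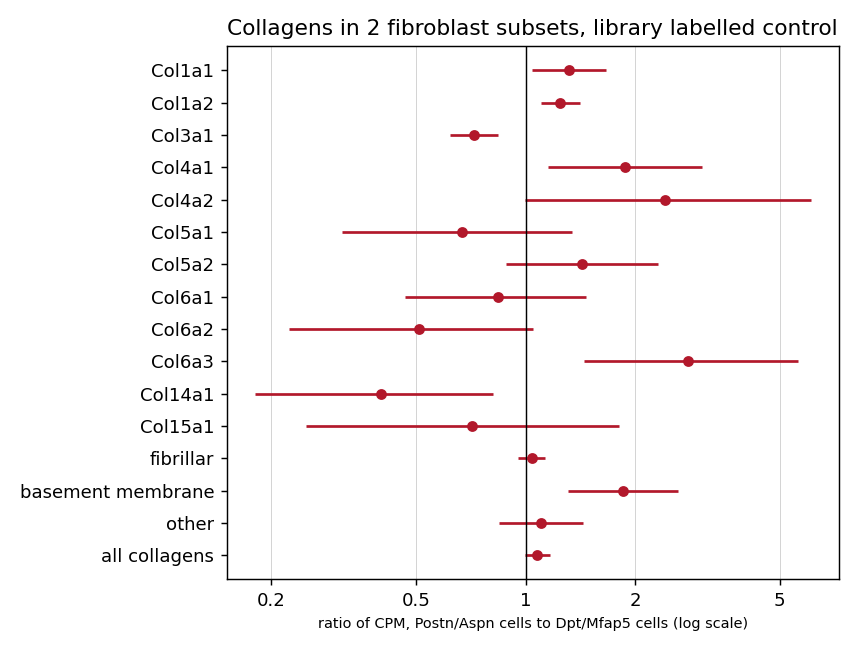
Ratio of collagen levels in 26 control fibroblast-gated cells with Postn or Aspn against 64 with Dpt or Mfap5 (log axis), with 95% conditional binomial intervals for counting error. Col6a3 lies highest at 2.80 and Col14a1 lowest at 0.401, with the fibrillar sum at 1.04.

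Endothelial-gated control cells also differed by vessel type. Against 1335 cells with sinusoidal markers, 60 cells with large vessel markers had 1.90-fold more Col4a1 (1.40 to 2.52), 2.07-fold more Col4a2 (1.32 to 3.12) and 16.6-fold more Col18a1 (6.54 to 42.3), the last on 11 against 11 UMIs. Col13a1 ran the other way, with 0 UMIs in large vessel and 102 in sinusoidal cells, at least 2.04-fold lower. The level of Col18a1 was 211 CPM in large vessel and 12.7 in sinusoidal cells. At 1 day p.i. the same ratios were 1.30 for Col4a1 (0.688 to 2.24) and 0.193 for Col4a2 (0.00488 to 1.09). They were 0.853 for Col18a1 (0.174 to 2.53) and 1.38 for Col13a1 (0.591 to 2.75), on 3 and 8 large vessel UMIs. Each of these intervals held 1, so that the differences of control were not seen at 1 day. These sets were also chosen after the counts had been seen.

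At 1 day p.i. the whole library held less collagen than control. The summed level was 488 against 2393 CPM, 4.90-fold lower (ratio 0.204, 0.196 to 0.212). Fibrillar collagens were 33.6-fold lower, at 57.0 against 1915, and other collagens 2.13-fold lower, at 109 against 232, whereas basement membrane collagens were 1.31-fold higher (1.23 to 1.40), at 322 against 245. The ratio was 0.125 in cells with at least 500 genes, and 0.307 without Col1a2, the member with the most UMIs. In such whole-library sums fewer cells of a type and less RNA per cell cannot be told apart. The fibroblast-gated share fell from 2.68% to 0.0757% of cells and the endothelial-gated share rose from 16.8% to 56.1%, and their part in these sums was not tested.

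By gene, 15 of 20 members were at least 2-fold lower at 1 day p.i. (5.86% of all genes) and 2 at least 2-fold higher (12.2% of all genes), with a median log2 ratio of -3.43 against 0.04 for all genes. Col1a1 was at 232 CPM in control and 2.78 at 1 day, 83.3-fold lower, Col1a2 at 842 and 12.3, 68.5-fold lower, and Col3a1 at 700.4 and 19.8, 35.4-fold lower. These 3 genes, which held most of the collagen UMIs of control, set the size of the fall in the fibrillar sum. Col5a1 (34.3-fold), Col12a1 (28.2-fold), Col6a2 (27.4-fold), Col6a1 (20.1-fold), Col16a1 (18.0-fold), Col6a3 (16.8-fold), Col15a1 (12.1-fold) and Col5a2 (9.63-fold) were lower as well, as were Col5a3 (6.97-fold), Col8a1 (5.13-fold), Col14a1 (4.73-fold) and Col4a5 (3.72-fold). Col11a1 and Col24a1, with 30 and 29 control UMIs, had 0 at 1 day, at least 7.62-fold and 7.37-fold lower. The 2 members past 2-fold upwards were Col13a1, at 18.5 in control and 85.8 at 1 day (4.65-fold, 3.86 to 5.61), and Col18a1, at 18.2 and 71.9 (3.95-fold, 3.26 to 4.79). Col4a1 was at 136 and 164 (ratio 1.21, 1.11 to 1.32) and Col4a2 at 65.8 and 80.9 (1.23, 1.09 to 1.39). Col27a1, at 7.24 and 9.99, had an interval that held 1 (0.947 to 2.01), as did Col23a1, Col11a2 and Col9a3. Col7a1, on 16 and 3 UMIs, had a ratio of 0.246 (0.0459 to 0.859).

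Within endothelial-gated cells, most of the collagens compared were lower at 1 day p.i. than in control. The summed level was 606 against 1481 CPM (ratio 0.409, 0.384 to 0.436), and 0.234 once the level of barcodes under 200 genes was subtracted in each library. Of 12 members, 8 were at least 2-fold lower (4.65% of all genes) and 1 at least 2-fold higher (13.8% of all genes), with a median log2 ratio of -1.85 against -0.01 for all genes. Col4a1 was at 544 in control and 218 at 1 day (0.401, 0.361 to 0.446), and Col4a2 at 262 and 111 (0.424, 0.365 to 0.493). The chains fell alike, and in the sinusoidal cells alone their ratios were 0.411 and 0.473. Fibrillar genes were lower too, with Col1a2 at 0.0286, Col1a1 at 0.0383, Col3a1 at 0.0522 and Col5a2 at 0.193 of control. The fibrillar sum of endothelial-gated cells at 1 day was 0.797 of that in barcodes under 200 genes (0.621 to 1.02). It went from 451 CPM in control to 39.6 at 1 day, and in these barcodes from 547 to 49.7. The part of transcripts from outside the cells in this fall was not tested.

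Col18a1 was the member that stood higher in endothelial-gated cells at 1 day p.i. Its level was 28.7 CPM in control and 83.6 at 1 day, 2.91-fold higher (2.04 to 4.29), and in sinusoidal cells alone 12.7 and 77.6, 6.12-fold higher (3.35 to 12.4). In large vessel cells the lower value was that at 1 day, with 211 in 60 control cells (11 UMIs, 105 to 378) and 66.1 in 84 cells at 1 day (3 UMIs, 13.6 to 193), intervals that overlapped. In barcodes under 200 genes it was 3.96 in control and 50.1 at 1 day, and with these levels subtracted the ratio was 1.36. Col13a1 was at 106 and 125, a ratio of 1.17 whose interval held 1 (0.961 to 1.44). Its level in barcodes under 200 genes was 16.8 and 72.1, and the ratio was 0.590 after subtraction. The 4.65-fold higher level of Col13a1 in the whole library thus stood beside a level within endothelial-gated cells that did not differ beyond counting error. Col27a1 (1.38, 0.705 to 2.96) and Col14a1 (0.608, 0.339 to 1.13) had intervals that held 1.

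The margin of endothelial-gated cells over barcodes under 200 genes was narrower at 1 day p.i. than in control. Basement membrane collagens were 1.41-fold above these barcodes at 1 day (1.29 to 1.55) and 6.46-fold in control, Col4a1 was 1.32-fold and 6.57-fold above, and Col18a1 1.67-fold (1.35 to 2.08) and 7.24-fold. Hepatocyte transcripts took 3.63% of the UMIs of endothelial-gated cells at 1 day and 0.223% in control, and their part in the collagen values was not tested.

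**Figure D5:**
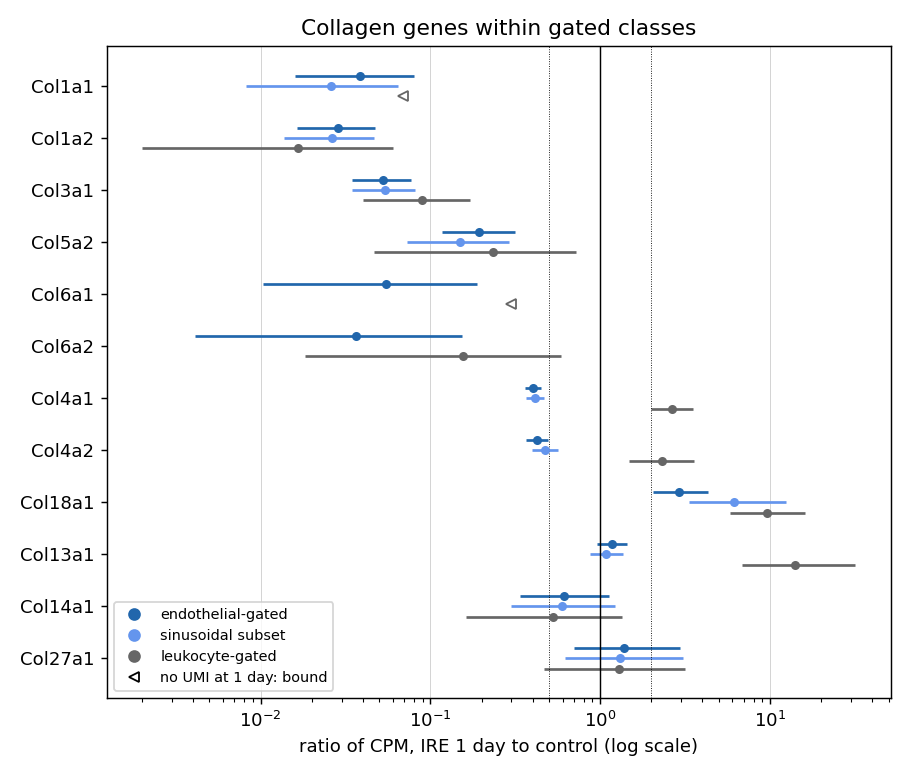
Ratio of collagen levels (CPM) at 1 day p.i. to control (log axis) in endothelial-gated cells, their sinusoidal subset and leukocyte-gated cells, with 95% conditional binomial intervals for counting error, open triangles for bounds and dotted lines at 2-fold. Col1a1, Col1a2 and Col3a1 lie below 1 in each set, Col18a1 lies above 1 in all 3, and Col4a1 lies at 0.401 in endothelial-gated but 2.66 in leukocyte-gated cells.

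In leukocyte-gated cells the summed collagen level was 329.9 CPM in control and 209.6 at 1 day p.i. (ratio 0.635, 0.555 to 0.724), and 0.980 (0.754 to 1.26) in cells without a marker of any other class. Of 13 members, 7 were at least 2-fold lower (6.07% of all genes) and 4 at least 2-fold higher (12.2% of all genes), with a median log2 ratio of -1.10 against 0.06 for all genes. The 4 higher ones were Col13a1 (14.0-fold), Col18a1 (9.54-fold), Col4a1 (2.66-fold) and Col4a2 (2.30-fold). Each had most of its UMIs in endothelial-gated cells at 1 day, as did Col27a1 (75.4%), Col14a1 (67.3%) and Col5a2 (57.1%), which were not among the 4. In barcodes under 200 genes of that library the levels of the 4 were 72.1, 50.1, 166 and 77.4, above the leukocyte-gated levels of 28.8, 47.2, 69.6 and 28.0. The interval of the Col18a1 ratio to these barcodes held 1 (0.679 to 1.30).

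Few fibroblast-gated or mesothelial-gated cells remained to compare after IRE. The 7 fibroblast-gated cells at 1 day p.i. held 83 collagen UMIs, a summed level of 24739 CPM against 37189 in control (ratio 0.665, 0.529 to 0.825). Col3a1 was at 11922 against 12421 (0.960, 0.685 to 1.31), Col1a2 at 8942 against 14462 (0.618, 0.417 to 0.884) and Col1a1, on 3 UMIs, at 0.225 of control (0.0463 to 0.658). The 7 mesothelial-gated cells held 59 collagen UMIs, a level of 7817 against 12164 (0.643, 0.486 to 0.836), and Col6a1 in them was at 795 against 879.9. Cells that passed these gates at 1 day thus held summed collagen within 2-fold of control, although few cells passed.

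At 7 days p.i. collagen was lower again over the whole library. The summed level was 87.6 CPM, 27.3-fold below control (ratio 0.0366, 0.0323 to 0.0413), with fibrillar collagens 103-fold, other collagens 16.5-fold and basement membrane collagens 4.47-fold below control. All 20 members compared were at least 2-fold lower (21.8% of all genes) and 0 at least 2-fold higher (8.79% of all genes), with a median log2 ratio of -4.66 against -0.21 for all genes. Col1a2 went from 842 to 3.27 (257-fold lower), Col3a1 from 700.4 to 5.23 (134-fold) and Col1a1 from 232 to 2.62 (88.7-fold). Col6a1, with 448 UMIs in control, had 0, at least 57.0-fold lower. The smallest falls were those of Col18a1 (2.42-fold), Col13a1 (3.14-fold), Col4a2 (3.80-fold) and Col4a1 (4.77-fold). Endothelial-gated cells fell from 16.8% to 1.74% and fibroblast-gated cells from 2.68% to 0.0711% of all cells.

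Within the 98 endothelial-gated cells of 7 days p.i., which held 96 collagen UMIs, the summed level was 1613 against 1481 CPM in control (ratio 1.09, 0.877 to 1.34). Basement membrane collagens were at 1260.2 against 849 (1.49, 1.16 to 1.88) and fibrillar collagens, on 4 UMIs, at 67.2 against 451 (0.149, 0.0405 to 0.384). Col4a1 was at 605 against 544 (1.11, 0.772 to 1.56), Col4a2 at 521 against 262 (1.99, 1.33 to 2.88), Col13a1 at 218 against 106 (2.05, 1.06 to 3.64) and Col18a1 at 134 against 28.7 (4.68, 1.87 to 10.3). Unlike at 1 day, neither Col4a1 nor Col4a2 stood below control in these cells. Mitochondrial transcripts took 22.8% of the UMIs of control endothelial-gated cells and 3.43% at 7 days. Fewer of them raise the CPM of every other gene. These 7 day ratios were not computed without mitochondrial UMIs, and how much of them this difference makes up was not tested. All 8 Col18a1 UMIs lay in 14 cells with large vessel markers, which had taken 60 of 1744 control cells, and 0 in the 52 sinusoidal cells. In this library endothelial-gated cells were 41.7-fold above barcodes under 200 genes for basement membrane collagens (28.5 to 61.5).

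Leukocyte-gated cells at 7 days p.i. had a summed collagen level of 35.7 CPM (ratio to control 0.108, 0.0862 to 0.134), below the 57.2 of barcodes under 200 genes. All 12 members compared were at least 2-fold lower than in control (20.2% of all genes) and 0 higher (9.39% of all genes), with a median log2 ratio of -3.36 against -0.19 for all genes. Cells with neutrophil markers stood at 37.1 and those with macrophage or monocyte markers at 32.4 (ratio 0.874, 0.441 to 1.61). The 4 fibroblast-gated cells held 11 collagen UMIs, 6 of them of Col3a1, a level of 4046 (ratio 0.109, 0.0543 to 0.195). With stellate cell markers taken out of the gate the ratio was 0.0137 (0.000347 to 0.0764), and the 2 intervals overlapped.

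Genes that modify and fold collagen chains followed the fibroblast gate in control. Of 18 such genes in the tables, 13 of the 15 compared were at least 2-fold higher in fibroblast-gated than in endothelial-gated cells (12.5% of all genes) and 1, Plod1, a lysyl hydroxylase, was lower (18.8% of all genes), with a median log2 ratio of 1.85 against -0.06 for all genes. Serpinh1, the chaperone that binds the collagen triple helix, was at 1346 CPM in fibroblast-gated, 101 in endothelial-gated and 11.3 in leukocyte-gated cells. P4hb, the shared subunit of prolyl hydroxylase, was 3.16-fold (2.57 to 3.88) and Ppib, a prolyl isomerase, 2.07-fold (1.65 to 2.59) higher than in endothelial-gated cells. Plod2 (44.6-fold), a lysyl hydroxylase, and Fkbp10 (18.9-fold), a prolyl isomerase, were further above it. Against control, 5 of 16 were at least 2-fold lower in the whole library at 1 day p.i. (5.86% of all genes) and 0 higher (12.2%). At 7 days 6 of 14 were lower (21.8% of all genes) and 2 higher (8.79%), the higher ones being P4ha1 (2.84-fold) and P4hb (2.56-fold). Within endothelial-gated cells at 1 day, 1 of 13 was at least 2-fold lower (4.65% of all genes) and 0 higher (13.8%). A count of 1 does not set this list apart from all genes. The gene was Serpinh1, at 0.410 of control (0.320 to 0.526), a ratio close to those of Col4a1 and Col4a2.

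Of 10 genes that export procollagen or cleave its ends, 5 of 7 compared were at least 2-fold higher in fibroblast-gated than in endothelial-gated control cells (12.5% of all genes) and 0 lower (18.8%), with a median log2 ratio of 3.51 against -0.06 for all genes. Adamts2, the enzyme that removes the amino-terminal propeptide, was 43.1-fold and Pcolce, which speeds removal of the carboxy-terminal one, 11.4-fold higher. Within endothelial-gated cells at 1 day p.i. 3 of 7 were at least 2-fold higher than in control (13.8% of all genes), namely Mia2 (17.5-fold on 53 against 1 UMIs), Pcolce2 (9.25-fold, 3.87 to 28.9) and Bmp1 (2.15-fold), and 0 lower. Mia2 shares its locus with Ctage5, another gene of the list, so that its count is uncertain. Hepatocyte transcripts in endothelial-gated cells rose from 0.223% of UMIs in control to 3.63% at 1 day, and their part in the Mia2 count was not tested. Of 10 collagen receptors, 5 could be compared between fibroblast-gated and endothelial-gated control cells. Of these, 2 were at least 2-fold higher in fibroblast-gated cells (12.5% of all genes) and 2 at least 2-fold lower (18.8%). Their median log2 ratio was 0.13 against -0.06 for all genes, and Itgb1, an integrin subunit, had a ratio of 1.09 (0.935 to 1.28). Ddr2, a receptor kinase for fibrillar collagen, was 43.1-fold and Mrc2, an endocytic collagen receptor, 34.9-fold higher in fibroblast-gated cells, while Itga1, an integrin subunit, was at 0.244 and Lair1, an inhibitory receptor of leukocytes, at 0.408. In the whole library 1 of 5 receptors, Ddr2, was at least 2-fold lower at 1 day p.i. (0.119 of control, 5.86% of all genes), and 3 of 5 at 7 days (21.8% of all genes).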

How the data were processed

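Dissociated liver cells were profiled by Drop-seq, in which single cells are caught in droplets with barcoded beads, and the authors deposited 1 table of UMI counts per gene and barcode for each of the 3 libraries, without normalization. Per the file headers these are counts of sense-strand reads on exons after collapse of UMIs. STAR 2.5.2a and the build hg19, a human build listed for these mouse samples, stand in the submitters' processing notes, and the build behind the mouse counts is not given in the sources used here. Gene coordinates were therefore taken from RefSeq only.

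Counts were read and summed in Python 3.11.15 with numpy 2.4.6, pandas 2.3.3 and scipy 1.17.1, and drawn with matplotlib 3.10.9. Barcodes with at least 200 genes were kept as cells. A cell was gated to a class with at least 2 of its markers and more than of any other class (60 markers: 18 endothelial, 9 mesothelial, 16 fibroblast, 10 leukocyte and 7 cholangiocyte). Ties were left out as mixed (157, 516 and 14 cells), 2479, 1746 and 1308 cells passed no gate, and no doublet caller was run, so that doublets stayed in. Cholangiocyte-gated cells (35, 28 and 11) served only to keep such cells out of the other classes. Levels are in CPM, counts of UMIs scaled to 1000000 in the class or library, with exact Poisson intervals. Shares have exact binomial (Clopper-Pearson) intervals and ratios conditional binomial ones. Shares were also computed after thinning each cell to 300 UMIs, which left out shallower cells (in control 34 endothelial, 7 fibroblast, 0 mesothelial and 68 leukocyte). Where 1 of a pair of counts was 0, the ratio is given as a bound with 3 counts in its place, and pairs of counts that both lay at 3 or below got none. A gene counted as higher or lower when past 2-fold, among genes with at least 50 UMIs over both libraries, or 20 within classes. Members with at least 20 UMIs over all cells are given by name with values. Of each pathway list, the 3 genes with the most UMIs in fibroblast-gated cells and genes past 4-fold could be named. P4ha1, Plod1, Bmp1, Itga1 and Lair1 were named as the few members of a count, after their values were seen. The intervals and the 2-fold rule were checked on simulated Poisson counts with known ratios. These counts held no variation between cells or libraries, so the check covers counting error only.

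The members, lists and gates were chosen with earlier results of these data known, and the subsets by vessel, fibroblast and leukocyte markers after the counts were seen. Alternatives changed the minimum of genes per barcode, the gate, the denominator, the most abundant member, the minimum of UMIs and the subtraction of background.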

Additional observations from a re-analysis of the deposited data

Results flagged for a closer look

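In 3 cases the ratio of 1 day p.i. to control lay on opposite sides of 1 in endothelial-gated and leukocyte-gated cells, with intervals apart from 1. Basement membrane collagens were at 0.493 of control in endothelial-gated cells (0.455 to 0.535) and at 2.98 in leukocyte-gated cells (2.44 to 3.63). Col4a1 was at 0.401 and 2.66, and Col4a2 at 0.424 and 2.30. With 1 library per condition the difference was not tested. The share of all genes with such opposite directions was not computed. The 3 cases are not separate, because Col4a1 and Col4a2 are part of the basement membrane sum. In endothelial-gated cells they held 644 and 310 of its 1005 UMIs in control, and 783 and 398 of 1502 at 1 day. In leukocyte-gated cells the basement membrane level was 48.8 CPM in control and 146 at 1 day, and in barcodes under 200 genes it was 131 and 296. The leukocyte-gated level was thus 0.372 of that in these barcodes in control (0.311 to 0.445) and 0.491 at 1 day (0.415 to 0.578), and the part of these barcodes' transcripts in the leukocyte-gated ratio was not tested.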

How the results depend on the processing

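No paired analysis was possible because each condition was 1 library, and for the same reason no library could be left out. Of 92 alternatives, 66 kept their value within counting error or within 1.5 times the count, 25 moved and 1 turned its direction. The last was Col13a1 in endothelial-gated cells at 1 day p.i., at 1.17 of control and at 0.590 with the level of barcodes under 200 genes subtracted. Subtraction, chosen for single members after seeing the data, also moved endothelial-gated basement membrane collagens from 0.493 to 0.170 and Col18a1 from 2.91 to 1.36, and sinusoidal cells alone gave 6.12 for Col18a1. The whole-library ratio at 1 day (0.204) was 0.230 with every barcode, 0.125 in cells with at least 500 genes and 0.307 without Col1a2, and at 7 days (0.0366) it was 0.0304 without mitochondrial UMIs and 0.0544 without Col1a2. The endothelial-gated ratio at 1 day (0.409) was 0.320 with at least 500 genes, 0.520 without markers of other classes and 0.234 after subtraction. The leukocyte-gated ratio at 1 day (0.635) was 0.512, 0.889 and 0.980 with at least 500 genes, without Col1a2 and without markers of other classes, and at 7 days (0.108) the last 2 gave 0.147 and 0.142. The fibroblast-gated ratio at 7 days (0.109) was 0.0240 with at least 500 genes (0.000608 to 0.134) and 0.0137 without stellate cell markers (0.000347 to 0.0764). Both intervals overlapped that of the main value. With a minimum of 4 UMIs, members past 2-fold at 1 day were 14 in place of 8 (lower, endothelial-gated) and 7 in place of 4 (higher, leukocyte-gated). Members highest in endothelial-gated cells over all libraries were 2 (minimum of 5 UMIs) or 3 (mean of libraries) in place of 1, in mesothelial-gated cells 7 (mean of libraries) in place of 3, and in leukocyte-gated cells 2 (minimum of 5 UMIs) in place of 1. Type IV chains alone gave 862 in place of 1144 CPM of basement membrane collagen in control fibroblast-gated cells. The cause of these moves was not tested.

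Subtraction gave levels below 0 in leukocyte-gated cells and no ratio. No value could be had for mesothelial-gated cells at 7 days, for fibroblast-gated cells at 1 day with at least 500 genes or without markers of other classes, nor at 7 days with at least 3 markers. At depths of 456.5 to 595 UMIs in the median cell, members under 20 UMIs cannot be placed in a class, and the 98 endothelial-gated cells of 7 days leave ratios of single members uncertain.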
